A study of Mus musculus with 6 samples.

Results

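The 10 genes described here are core members of the mammalian circadian clock: Clock, Npas2, Per1, Per2, Per3, Cry1, Cry2, Nr1d1, Nr1d2 and Dbp. They were chosen by name, with earlier results of these data known, and were 10 of 54532 gene identifiers counted in 6 poly(A)+ RNA-seq libraries of mouse Flp-In 3T3 cells, an embryonic fibroblast line. SAFB KD libraries (n = 3) came from cells transfected with siRNAs against Safb, Safb2 and Sltm at once, and control libraries (n = 3) from cells given the control treatment. The siRNA dose was repeated after a day and cells were harvested on the third day. The study asked what these nuclear RNA-binding proteins do to the RNA of the cell. Both groups were of this line. The time of day at harvest and any synchronisation of the cells are not given in the sources used here, so each value is a single level at an unknown phase, averaged over many cells. In such bulk RNA, fewer cells with a transcript and less transcript per cell cannot be told apart.

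The clock runs as a transcriptional feedback loop. CLOCK, or its relative NPAS2, pairs with BMAL1 (the product of Arntl) on E-box elements and activates the Per and Cry genes, whose proteins return to the nucleus and repress that activity. A second loop is formed by the nuclear receptors REV-ERBα and REV-ERBβ, encoded by Nr1d1 and Nr1d2, which repress Arntl and Clock through elements shared with the activating ROR receptors. Dbp encodes an activator of D-box elements and is itself a target of the E-box. Fibroblasts in culture carry this clock cell by cell, and serum or glucocorticoids can align it across a dish.

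Library totals ranged from 33323307 to 53441129 reads in genes. The knockdown targets had lower values in all SAFB KD libraries, with log2 fold changes (SAFB KD relative to control) of -1.01 for Safb, -0.64 for Safb2 and -0.70 for Sltm. The first principal component separated the groups and held 82.4% of the variance. Control library 3 stood apart on the second (5.78%), at -11.1 against 8.74 and 2.5 in the other control libraries, and calls of clock genes that changed without it are given both ways. All 11 fibroblast markers averaged at least 1 CPM (counts scaled to library size with TMM factors), with sums of 18100 to 18600 in SAFB KD and 19300 to 21200 in control libraries. None of 6 epithelial markers reached 1 CPM. The summed leukocyte markers were 6.48 to 8.48 CPM in SAFB KD and 3.54 to 4.38 CPM in control, with Ptprc at 4 reads in all, and those of neurons 9.12 to 9.49 CPM in SAFB KD and 14.6 to 16.4 CPM in control. The summed endothelial markers were 9.38 to 10.4 CPM in SAFB KD and 7.89 to 8.39 CPM in control, and those of muscle 3.26 to 4.18 CPM in SAFB KD and 2.80 to 3.08 CPM in control. In these 4 lists, 1 of 6 leukocyte, 1 of 5 neuron, 2 of 5 endothelial and 1 of 5 muscle markers averaged at least 1 CPM. The part of these markers in the clock gene values was not tested.

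The siRNAs that define the SAFB KD group are shown as sense strands, 5′ to 3′, from the study's oligonucleotide list, because short matches to other transcripts can be looked for in them. Capitals mark the 19 bases that matched the target.
Safb siRNA: GGAUGACCGUUACCACUCAtt
Safb2 siRNA: UGCUUUUGAUGACAGUAAAtt
Sltm siRNA: GCAUUAGAAUAAUUCGUGAtt
Each full match fell in transcripts of its target gene alone, and in none of the 10 clock genes. The 7 bases pairing with positions 2 to 8 of the guide strand occurred in the 3′ UTR of the longest coding transcript of 3 clock genes: Clock (2 sites for the Safb2 siRNA), Per2 (1 site for the Sltm siRNA) and Nr1d1 (1 site for the Safb siRNA). The other 7 had none. Among 11028 genes with such a UTR and at least 1 CPM, 7.45%, 12.3% and 2.35% held a site for the Safb, Safb2 and Sltm siRNA. Their median log2 fold changes were -0.13, -0.03 and -0.06, against 0.02 for genes without the site in each case. The share called as lower was 48.9% with a Safb site and 28% without, 37.3% with a Safb2 site and 28.5% without, and 42.1% with a Sltm site and 29.3% without. UTR length was not accounted for. The part of these sites in the clock gene values was not tested.

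All 10 clock genes had at least 10 reads over the 6 libraries and were tested among 19452 genes. Of the 10, 3 rose in SAFB KD (Per1, Cry2 and Nr1d1), 5 fell (Clock, Per2, Per3, Nr1d2 and Dbp), and Npas2 and Cry1 did not pass the test (edgeR quasi-likelihood test, adjusted p under 0.05 over all genes tested). Across all genes tested, 41.8% were called, 21.6% as higher and 20.2% as lower. Of the 9 clock genes that averaged 1 CPM or more, 8 were called, where 60.6% of all genes at that level were. The median log2 fold change was -0.25 over the 10 clock genes and 0.01 over all genes tested. The groups did not overlap for 9 of 10, Npas2 being the exception, while 49.0% of all genes tested had groups that did not overlap. Tested against a change of 1.5-fold (glmTreat), 2 clock genes were called, both lower, Per2 and Per3. That test called 3.86% of all genes, 1.80% as higher and 2.06% as lower. The 10 genes did not move as a block, and paralogues took opposite directions in the Per and REV-ERB families, as the values below show by role.

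**Figure D1:**
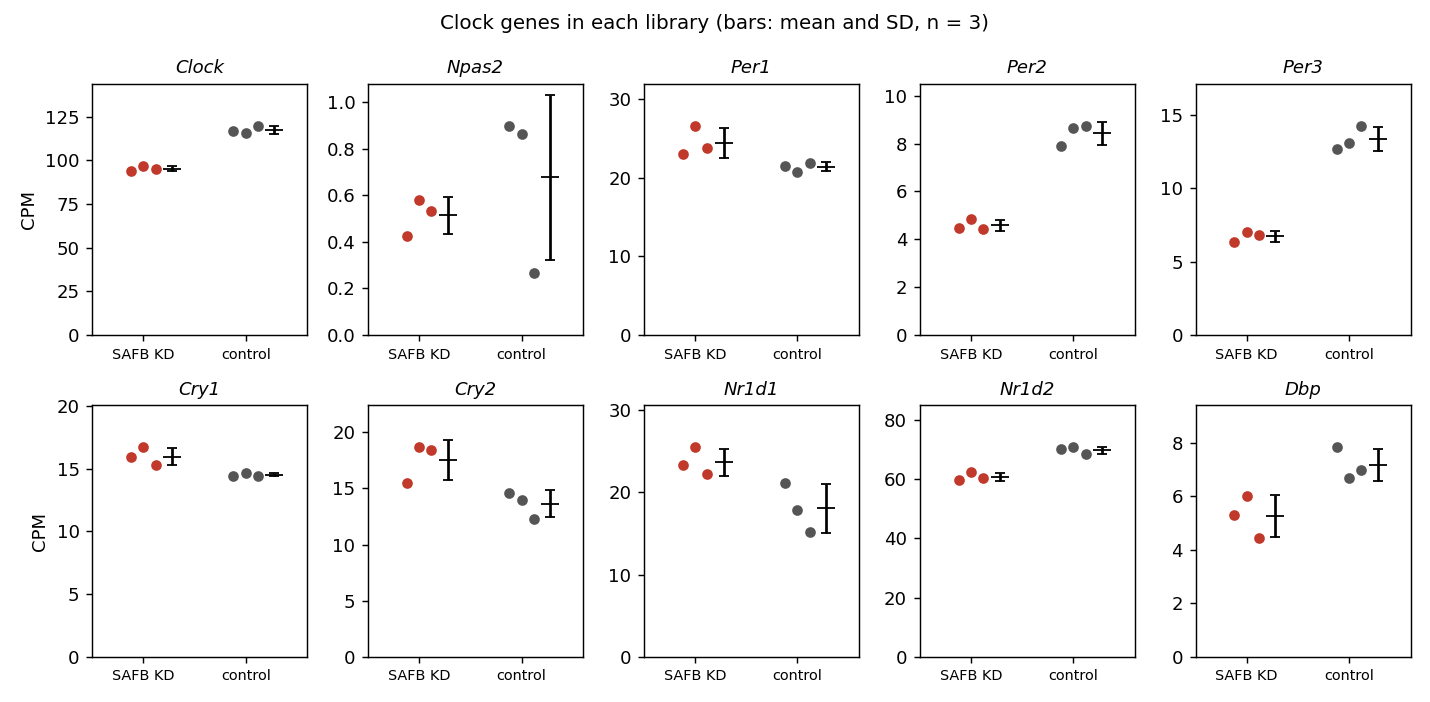
TMM-scaled CPM of each clock gene in the 3 SAFB KD and the 3 control libraries (points), with the mean and SD of each group (bars); each panel has its own axis from 0. Per2 and Per3 showed the widest separation relative to their level, 4.42 to 4.85 against 7.88 to 8.75 CPM and 6.31 to 6.98 against 12.7 to 14.3 CPM. Npas2 alone overlapped.

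Clock and Npas2 encode the interchangeable activator partners of BMAL1. Clock (chr5:76209868-76304792, minus strand, GRCm38) had 93.8, 96.7 and 94.9 CPM in SAFB KD libraries and 117, 116 and 120 CPM in control libraries. All SAFB KD values were under all control values, and the libraries of a group lay close together. Clock fell by 18.9% (log2 fold change -0.30, SE 0.0333, adjusted p = 1.08e-11). Npas2 (chr1:39193731-39363236, plus strand), used more in forebrain and vascular cells, was near the limit of detection here, with 15, 25 and 28 reads in SAFB KD and 39, 35 and 9 reads in control. Its 0.426 to 0.580 CPM in SAFB KD lay inside the 0.268 to 0.899 CPM of the control libraries (log2 fold change -0.42, SE 0.340, adjusted p = 0.357). The low control value was that of library 3, and without that library the log2 fold change was -0.78 (adjusted p = 0.0482). Arntl, which encodes the shared partner BMAL1 and was not among the 10, averaged 29.1 ± 2.05 CPM in SAFB KD and 28.7 ± 0.948 CPM in control (SD, n = 3 each), a log2 fold change of 0.02 (SE 0.0543, adjusted p = 0.843). Its paralogue Arntl2 fell (log2 fold change -2.67, SE 0.576, adjusted p = 9.12e-05), but on 2, 5 and 2 reads in SAFB KD against 17, 17 and 19 in control.

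The Per genes encode the period proteins, scaffolds of the repressor complex, and their promoters carry E-boxes and D-boxes. The window of Per3 and the upstream window of Per1 are printed because the data place these paralogues on opposite sides of no change. They are RefSeq promoters of GRCm38, 250 bases before to 50 after the annotated start, on the strand of the gene. Capitals mark D-boxes (TTATGTAA) in Per3 and the E-box (CACGTG) in Per1.
Per3, chr4:151044616-151044915, minus strand: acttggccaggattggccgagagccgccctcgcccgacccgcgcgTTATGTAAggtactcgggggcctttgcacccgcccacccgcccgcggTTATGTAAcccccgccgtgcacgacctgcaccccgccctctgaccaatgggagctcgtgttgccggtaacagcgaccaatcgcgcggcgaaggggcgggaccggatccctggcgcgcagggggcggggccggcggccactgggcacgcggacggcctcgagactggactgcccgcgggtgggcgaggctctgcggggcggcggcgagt
Per1, chr11:69098699-69098998, plus strand: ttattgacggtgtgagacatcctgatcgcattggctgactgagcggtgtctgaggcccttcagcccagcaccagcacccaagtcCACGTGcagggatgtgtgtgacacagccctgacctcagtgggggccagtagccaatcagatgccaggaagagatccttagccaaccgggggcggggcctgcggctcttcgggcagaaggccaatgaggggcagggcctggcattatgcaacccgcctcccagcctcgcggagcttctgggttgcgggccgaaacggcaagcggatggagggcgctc
The D-boxes of Per3 began 205 and 158 bases before the start, and the E-box of Per1 166 bases before it. The other Per1 window (chr11:69099902-69100201, plus strand) held neither motif and is not printed. A D-box spelled TTATGTAA or TTACGTAA, on either strand, was in 1.06% of 32851 promoter windows, and CACGTG, the same on both strands, in 7.15%. The printed Per1 window also holds ttatgcaa, a spelling that was not searched for. Per2 had no window in the RefSeq table, so its promoter was not searched. Of the 9 clock genes with a window there (12 windows), Per3 alone held a D-box of the searched spellings, and CACGTG was in Per1 and Cry1 (60 bases before the start). The related CACGTT, on either strand and not overlapping CACGTG in these genes, was in Cry1, Cry2 and Nr1d1 and in 4.68% of all windows. AGGTCA, the core of ROR and REV-ERB elements, was in a window of Clock, Per1 and Nr1d2 and in 16.3% of all windows. These are matches of letters in a window and no measure of binding.

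Per3 (ENSMUSG00000028957, chr4:151003652-151044665, minus strand) had 6.31, 6.98 and 6.84 CPM in SAFB KD libraries and 12.7, 13.1 and 14.3 CPM in control libraries, on 222 to 549 reads. All SAFB KD libraries were near 7 CPM and all control libraries above 12 CPM. Per3 fell 1.98-fold (log2 fold change -0.98, SE 0.0845, adjusted p = 1.59e-15), the largest change among the clock genes called. The fall was also called beyond 1.5-fold (adjusted p = 6.87e-05, at most 0.00261 in 13 alternative analyses). Among the 12103 genes with at least 1 CPM, the size of its change stood at percentile 97.0. Per2 (ENSMUSG00000055866, chr1:91415982-91459324, minus strand), the paralogue known for variants that shift the human sleep phase, had 4.49, 4.85 and 4.42 CPM in SAFB KD and 7.88, 8.66 and 8.75 CPM in control. No SAFB KD library reached 5 CPM and no control library was below 7 CPM. Per2 fell 1.84-fold (log2 fold change -0.88, SE 0.102, adjusted p = 5.71e-11). Its call beyond 1.5-fold was close to the threshold (adjusted p = 0.0180). That call was lost with DESeq2 (0.370), with limma-voom (0.142), without SAFB KD library 3 (0.0930) and without control library 2 (0.0606), although Per2 was called as lower in each of these.

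Per1 (chr11:69095217-69109960, plus strand), a period gene that also responds directly to cAMP and glucocorticoids, moved the other way. It had 23.0, 26.6 and 23.7 CPM in SAFB KD libraries and 21.5, 20.8 and 21.9 CPM in control libraries. The groups did not overlap, but the lowest SAFB KD and highest control library were about 1 CPM apart. Per1 rose by 14.5% (log2 fold change 0.20, SE 0.0593, adjusted p = 0.00533). The call was lost without SAFB KD library 2 (log2 fold change 0.13, adjusted p = 0.122) and without control library 2 (0.16, adjusted p = 0.0543).

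Cry1 and Cry2 encode the cryptochromes, the repressors that bind CLOCK and BMAL1 directly. Cry2 (chr2:92403646-92434043, minus strand) had 15.4, 18.7 and 18.4 CPM in SAFB KD and 14.6, 14.0 and 12.3 CPM in control. The groups did not overlap, with SAFB KD library 1 the closest to the control range. Cry2 rose (log2 fold change 0.36, SE 0.0724, adjusted p = 2.75e-05). The value ranged between 0.29 and 0.44 when each library was left out in turn. Cry1 (chr10:85131700-85185064, minus strand), the stronger of these repressors in mouse cells, had 15.9, 16.7 and 15.3 CPM in SAFB KD and 14.4, 14.6 and 14.4 CPM in control. Its groups did not overlap either, and its log2 fold change was 0.14 (SE 0.0674, adjusted p = 0.101), short of a call in all 13 alternative analyses.

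Nr1d1 and Nr1d2 encode the REV-ERB receptors, heme-binding repressors of Arntl and Clock. Nr1d1 (chr11:98767932-98775333, minus strand) had 23.3, 25.4 and 22.2 CPM in SAFB KD libraries and 21.1, 17.9 and 15.2 CPM in control libraries. The control libraries were spread more widely than the SAFB KD libraries, with control library 3 lowest. Nr1d1 rose (log2 fold change 0.38, SE 0.0878, adjusted p = 0.00162). Without control library 3 the value was 0.26 (adjusted p = 0.000914), and without control library 1 it was 0.50. Nr1d2 (chr14:18204054-18239127, minus strand) had 59.6, 62.2 and 60.5 CPM in SAFB KD and 70.0, 70.7 and 68.4 CPM in control. Both groups were tight and apart by more than 6 CPM at the nearest libraries. Nr1d2 fell by 12.8% (log2 fold change -0.20, SE 0.0382, adjusted p = 1.39e-05). Of the ROR receptors, which compete with REV-ERB for the same elements, Rora had a log2 fold change of 0.19 (SE 0.0999, adjusted p = 0.117), or 0.29 without control library 3 (adjusted p = 0.0237), and Rorb had 5 reads in all and was not tested.

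Dbp (chr7:45705088-45710203, plus strand), a strongly rhythmic output of the loop in liver and other tissues, had 5.31, 6.03 and 4.46 CPM in SAFB KD and 7.83, 6.67 and 6.99 CPM in control. The groups did not overlap, although the highest SAFB KD and lowest control library were less than 1 CPM apart. Dbp fell (log2 fold change -0.46, SE 0.108, adjusted p = 0.000340), with values of -0.57 to -0.34 when single libraries were left out. Hlf and Tef encode the other D-box activators of its family. Hlf rose (0.24, SE 0.0855, adjusted p = 0.0170), a call that was lost with total counts (adjusted p = 0.0503) and without SAFB KD library 1 (0.0680), control library 1 (0.0744) or control library 2 (0.0559). Tef had a log2 fold change of -0.08 (SE 0.0408, adjusted p = 0.110) and was called as lower with total counts (-0.12, adjusted p = 0.0145), under a filter of 1 CPM (-0.09, adjusted p = 0.0491) and without SAFB KD library 2 (-0.13, adjusted p = 0.0238). Their difference from Dbp was not tested. Nfil3, which encodes the repressor of the same D-boxes, rose to 50.3 ± 3.37 CPM in SAFB KD, against 41.9 ± 0.480 CPM in control (SD, n = 3 each; log2 fold change 0.26, SE 0.0457, adjusted p = 1.80e-06).

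**Figure D2:**
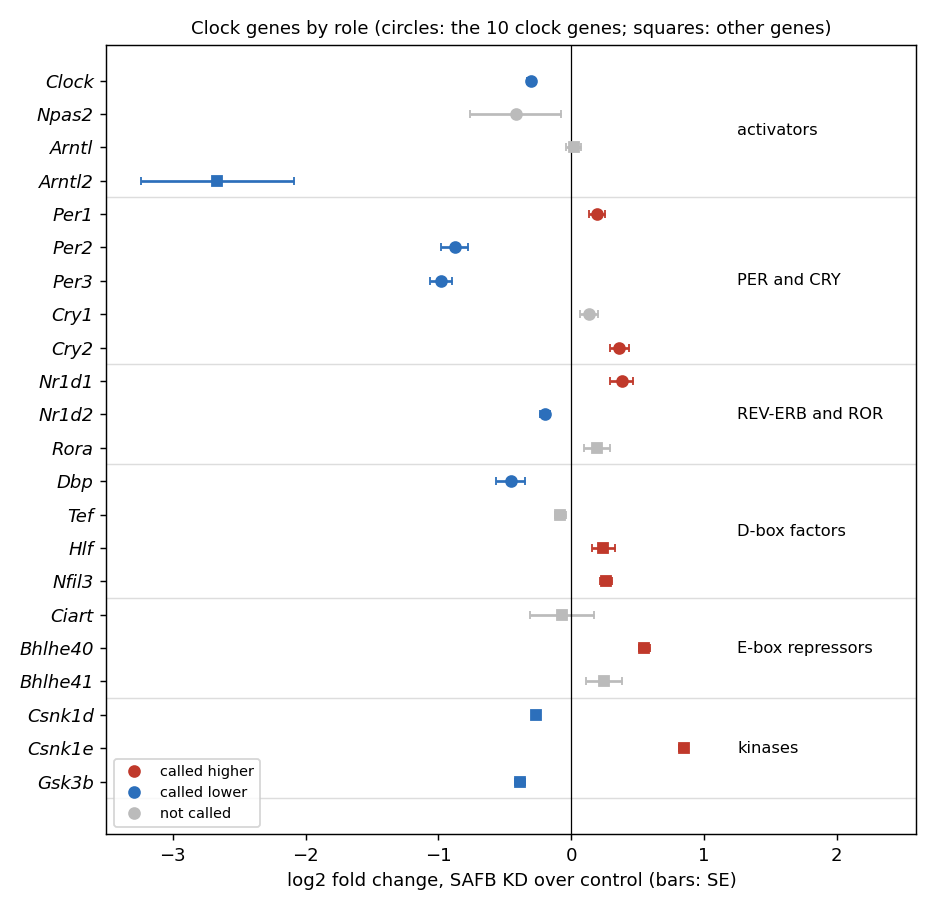
Log2 fold change (SAFB KD relative to control) with its SE for the 10 clock genes (circles) and 12 other genes of the pathway (squares), ordered by role and coloured by the call. Per2 (-0.88) and Per3 (-0.98) lie far to the left of Per1 (0.20), Nr1d1 (0.38) lies right of Nr1d2 (-0.20), and the long bar of Arntl2 (-2.67) reflects its few reads.

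Because paralogues moved unequally, their log2 ratio was taken within each library, where the scaling factor cancels but for a small prior count. Per1 to Per2 was 2.35, 2.45 and 2.42 in SAFB KD and 1.44, 1.26 and 1.32 in control. The groups lay far apart, and the difference of means was 1.07 (SE 0.0621), a 2.09-fold shift towards Per1. Nr1d1 to Nr1d2 was -1.35, -1.29 and -1.44 in SAFB KD and -1.73, -1.98 and -2.17 in control, again without overlap, a difference of 0.60 (SE 0.136) or 1.52-fold. In both cases the 2-sided exact permutation test gave p = 0.1, the smallest that 3 against 3 libraries allow. Per3 to Per2 averaged 0.548 in SAFB KD and 0.660 in control, a difference of -0.11 (SE 0.0532) with groups that overlapped (exact permutation p = 0.2). Cry1 to Cry2 averaged -0.13 ± 0.159 in SAFB KD and 0.10 ± 0.126 in control (SD, n = 3 each), a difference of -0.22 (SE 0.117) with overlap (exact permutation p = 0.2). Npas2 to Clock differed by 0.09 (SE 0.585, exact permutation p = 1). Adjusted over the 5 ratios, p was 0.25 for each of the first 4 and 1 for the last, so none could pass at this number of libraries.

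**Figure D3:**
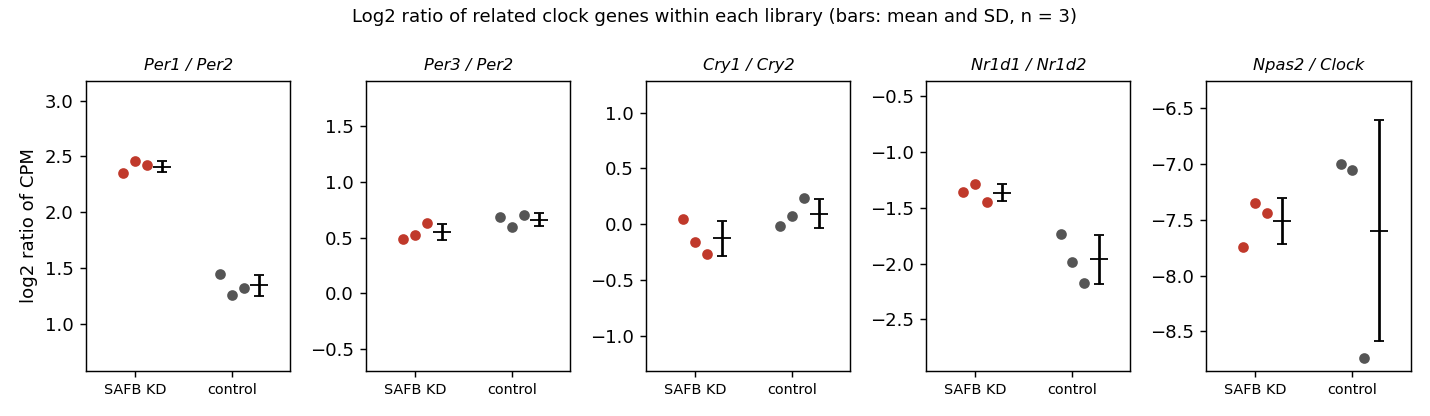
Log2 ratio of CPM between related clock genes within each library (points), with group mean and SD (bars); all panels span the same range of log2 units. Per1 / Per2 and Nr1d1 / Nr1d2 separate the groups, at means of 2.41 against 1.34 and -1.36 against -1.96, and the other ratios overlap.

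Levels were compared between genes as CPM per kilobase of exonic length. In control libraries the order was Nr1d2 (12.9 ± 0.222), Clock (8.55 ± 0.163), Nr1d1 (5.86 ± 0.965), Cry1 (4.34 ± 0.0350), Per1 (3.80 ± 0.102), Dbp (2.39 ± 0.201), Cry2 (2.15 ± 0.189), Per2 (1.44 ± 0.0818), Per3 (1.39 ± 0.0864) and Npas2 (0.141 ± 0.0739) CPM per kilobase (SD, n = 3). Neighbours in this order did not overlap, except Dbp with Cry2 and Per2 with Per3. In SAFB KD libraries the order differed in 2 places. Nr1d1 (7.69 ± 0.533) stood above Clock (6.93 ± 0.107), and Cry2 (2.77 ± 0.285) above Dbp (1.76 ± 0.263), both pairs without overlap between the genes. Per2 (0.783 ± 0.0391) and Per3 (0.699 ± 0.0370) were the lowest of the genes detected at 1 CPM or more. The length used turned some of these orders. Per kilobase of the longest coding transcript, a choice added after seeing the data, Clock (9.76 ± 0.150) stayed above Nr1d1 (8.70 ± 0.603) in SAFB KD, as in control (12.05 ± 0.229 and 6.63 ± 1.09), so that exchange was not seen, whereas Cry2 (4.40 in SAFB KD, 3.43 in control) and Dbp (2.87 in SAFB KD, 3.90 in control) still exchanged places. On that scale Per3 (1.12 in SAFB KD, 2.22 in control) was above Per2 (0.786 in SAFB KD, 1.45 in control).

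Summed within families on the same exonic scale, the period genes gave 5.82 ± 0.410 CPM per kilobase in SAFB KD and 6.63 ± 0.212 in control, a difference of -12.1%. Per1 carried most of this sum. Its share was 74.1%, 75.3% and 74.2% in the SAFB KD libraries and 58.9%, 56.5% and 56.6% in the control libraries, so no SAFB KD share came near a control share. Per2 made up 13.2% to 13.9% in SAFB KD and 20.8% to 22.7% in control, and Per3 11.6% to 12.5% and 20.3% to 21.6%. The cryptochromes summed to 7.55 ± 0.376 in SAFB KD and 6.50 ± 0.202 in control. The REV-ERB receptors summed to 18.9 ± 0.747 in SAFB KD and 18.7 ± 1.12 in control, with opposite changes of Nr1d1 and Nr1d2 within that sum. No test was run on the sums.

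**Figure D4:**
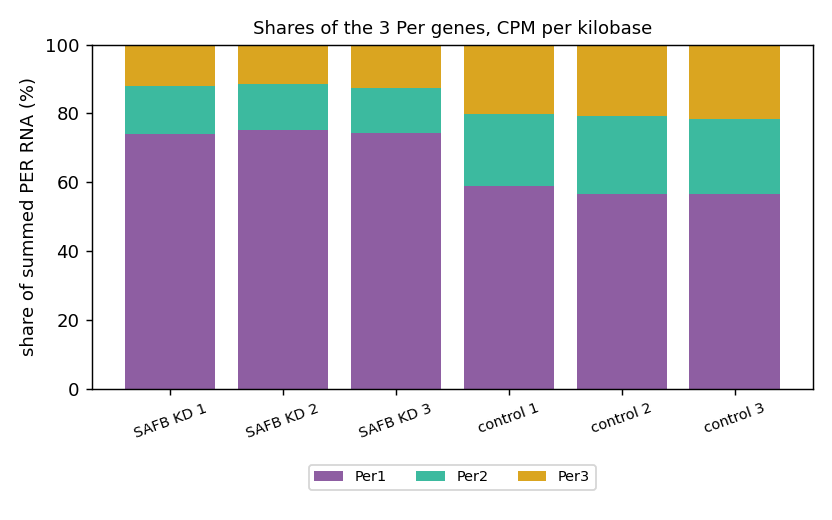
Share of each Per gene in the summed Per RNA of a library (CPM per kilobase of exonic length, in percent), 1 bar per library. The Per1 share is 74.1% to 75.3% in SAFB KD bars and 56.5% to 58.9% in control bars.

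The clock genes also differed in how far replicate libraries agreed. The SD of log2 CPM within groups was 0.0249 for Clock and 0.0288 for Nr1d2, at percentiles 7.8 and 11.4 among the 12103 genes with at least 1 CPM, whose median was 0.0610. Cry1 (0.0458) was also below the median, and Per2 (0.0769), Per3 (0.0829) and Per1 (0.0839) were above it. Cry2 (0.141), Dbp (0.175) and Nr1d1 (0.182) were at percentiles 84.6, 89.2 and 89.9, and Npas2, at few reads, had 0.652. Changes of similar size had unlike errors, as in Clock (log2 fold change -0.30, SE 0.0333) and Nr1d1 (0.38, SE 0.0878).

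**Figure D5:**
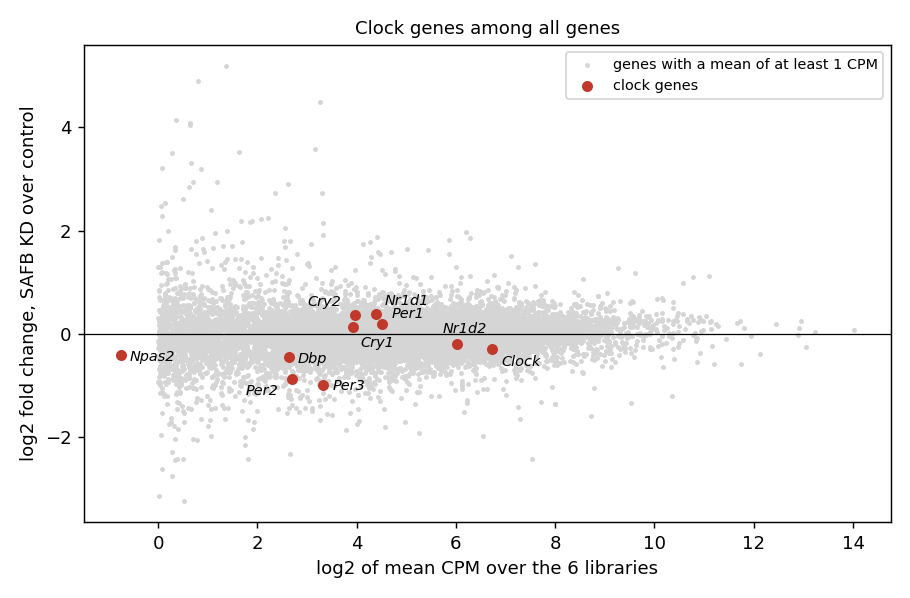
Log2 fold change (SAFB KD relative to control) against log2 mean CPM for genes with at least 1 CPM (grey) and the 10 clock genes (red). Per3 (-0.98) and Per2 (-0.88) lie low in the grey cloud, with sizes of change at percentiles 97.0 and 96.1, so other genes lie further out. Npas2, below 1 CPM, lies to the left of the cloud, and the other clock genes also lie within it.

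Gene counts can be touched by overlapping genes, so those at the clock loci were read out as well. Exons shared with a clock gene all lay on the opposite strand, and counting by strand was inferred, not stated. Per3 lies wholly inside Camta1 (chr4:150917322-151861876), which encodes a calmodulin-binding transcription factor on the same strand, with no Camta1 exon in the Per3 span. Camta1 averaged 8.09 ± 0.342 CPM in SAFB KD and 8.27 ± 0.300 CPM in control (SD, n = 3 each; log2 fold change -0.03, SE 0.0903, adjusted p = 0.835), while the gene inside it fell. Nr1d1 shares 263 exonic bases with the end of the thyroid hormone receptor gene Thra on the opposite strand, and Thra fell (-0.20, adjusted p = 2.39e-06) where Nr1d1 rose. Dbp shares 539 exonic bases with the sphingosine kinase gene Sphk2 on the opposite strand, which also fell (-0.22, adjusted p = 0.00733). Clock holds the pseudogene Ube2n-ps1 in an intron on its own strand (-0.08, adjusted p = 0.825). The antisense D930015M05Rik at Cry2 had 1 read. Of 24 overlapping or nearest genes with at least 1 CPM, 6 rose, 10 fell and 8 were not called, where 60.6% of all genes at that level were called. Beside Per1, the vesicle gene Vamp2 (2833 bases away) fell (-0.69, adjusted p = 5.02e-18) where Per1 rose. Beside Per3, Vamp3 (2635 bases away) had a log2 fold change of 0.01 and Tnfrsf9, which lies inside Camta1 in part, rose to 11.5 ± 0.477 CPM in SAFB KD, against 4.54 ± 0.174 CPM in control (SD, n = 3 each).

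The wider pathway was read from a list of 60 other clock genes, of which 58 were tested: 16 rose, 17 fell and 25 were not called, a share called of 56.9%, between the 41.8% of all genes and the 60.6% of those at 1 CPM or more, with a median log2 fold change of 0.02. Of 11 kinase and phosphatase genes that set the stability of PER and CRY, 6 rose and 3 fell. The share called was 81.8%, and its difference from that of all genes was not tested. Csnk1e, which encodes casein kinase 1 epsilon, a kinase of the PER proteins, had 110 ± 0.297 CPM in SAFB KD and 61.4 ± 2.78 CPM in control (SD, n = 3 each). Its rise of 1.80-fold (log2 fold change 0.85, SE 0.0361, adjusted p = 2.91e-29) was the only one of the 58 called as higher beyond 1.5-fold. Csnk1d, the paralogous kinase, fell (-0.26, SE 0.0335, adjusted p = 7.53e-10), as did Gsk3b (-0.38, SE 0.0391, adjusted p = 1.12e-12). Of the E-box repressors, Bhlhe40 rose (0.55, SE 0.0422, adjusted p = 2.57e-17), and Bhlhe41 (0.25, adjusted p = 0.138) and Ciart (-0.07, adjusted p = 0.855) were not called.

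Of 11 genes that act on PER, CRY or REV-ERB through ubiquitin, Siah2, a ligase for REV-ERBα, rose (0.34, adjusted p = 2.42e-05). Huwe1 and Usp2 fell (-0.20 and -0.24) and 8 were not called, a share called of 27.3%. Of 16 coregulators of the loop, 2 rose and 8 fell, a share called of 62.5%, near the 60.6% of all genes at 1 CPM or more, with no test of direction. Those that fell included the methyltransferase gene Kmt2a (-0.50), the acetyltransferase gene Ep300 (-0.32) and the helicase gene Ddx5 (-0.30). Of 11 output genes, 10 were tested, 4 rose (Alas1 0.57, Klf10 0.53, Nampt 0.35, Por 0.20) and 3 fell (Cirbp -0.34, Wee1 -0.28, Rbm3). Their share called was 70%. Of 13 E-box and D-box targets within the loop, 8 are clock genes described here. Of the 13, 5 rose, 4 fell and 4 were not called, a share called of 69.2%. Clock, Npas2 and Cry1 are also among 5 targets of ROR and REV-ERB elements. Of these 5, Nfil3 rose, Clock fell, and Arntl, Npas2 and Cry1 were not called, a share called of 40%. Both counts thus repeat in part the values given above and are not separate evidence.

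The genes whose pattern over the 6 libraries was most like that of Per3, among 12102 others with at least 1 CPM, were Lmf1, Nsun7 and Gm49338. The measure was the root-mean-square difference of centred log2 CPM, which was 0.0332, 0.0467 and 0.0494 for them. Lmf1, a gene for the maturation of lipases, had 7.19, 7.84 and 8.16 CPM in SAFB KD and 15.2, 15.2 and 16.5 CPM in control. Nsun7 had only 32, 40 and 48 reads in SAFB KD and 76, 70 and 67 in control. The log2 fold changes of the 3 were -1.01, -0.98 and -0.97, against -0.98 for Per3 and -0.88 for Per2. Where libraries of a group agree, the measure mostly follows the fold change, so the absence of Per2 says little.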

How the data were processed

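Poly(A)+ RNA was sequenced in 3 SAFB KD and 3 control libraries, which the series calls biological replicates, prepared with a kit that keeps the strand. The authors trimmed the reads, aligned them to GRCm38 with STAR 2.7.9a and deposited raw counts, whole reads per gene, 1 library per file. That these are the reverse-stranded counts of STAR was inferred, not stated. Such counting keeps unique reads in the exons of 1 gene on 1 strand, so isoforms cannot be separated. Of 54532 identifiers, 54495 matched GENCODE M21, which gave symbols and 1-based coordinates, and 37 did not. The submitters' notes also name mm10 and deepTools 3.5.1.

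Genes with at least 10 reads over the 6 libraries (19452) were scaled by TMM factors. Groups were compared in R 4.3.3 with edgeR 4.0.16 (quasi-likelihood F-test, robust, no covariate), with Benjamini-Hochberg adjustment over all of them. Changes beyond 1.5-fold were tested with glmTreat. The SE is the log2 fold change divided by the square root of F. CPM errors are SDs of 3 libraries. The edgeR p-values set the group difference against a spread between these libraries that is estimated with information shared across genes. Ratios used log2 CPM (prior count 0.5) and 2-sided exact permutation tests, adjusted over 5. Motifs were searched on both strands of RefSeq promoters. The scripts were tested on simulated data. Alternatives were DESeq2 1.42.0, limma-voom (limma 3.58.1), other size factors and filters, the replicate number as a block, and each library left out in turn. Python 3.11.15 with matplotlib 3.10.9 drew the figures.

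The clock genes and all lists were chosen with earlier results of these data known. Other genes were named by rule: up to 4 per list with the smallest adjusted p, genes overlapping or nearest to a clock gene at 1 CPM or more, the knockdown targets, and the 3 genes most like Per3. No pair of libraries in a group was a duplicate (chi-square per degree of freedom 3.92 to 19.6). Libraries of the same number did not deviate together (correlations 0.0534, 0.0147 and -0.00111), so the numbers were not taken to pair them. Some genes that the rule names are not reported here.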

Additional observations from a re-analysis of the deposited data

How the results depend on the processing

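Clock genes called numbered 8 in the 7 alternative analyses with all libraries and 7 to 9 when a library was left out. Those beyond 1.5-fold numbered 1 rather than 2 under DESeq2 and under limma-voom, and 1 to 2 when a library was left out, Per2 being the one lost each time. Over all genes DESeq2 called 465 beyond 1.5-fold, against 751. The replicate block called 8118 genes, 8 clock genes, 2 of them beyond 1.5-fold, and 34 wider pathway genes, against 8123, 8, 2 and 33 without it. Npas2 (-0.78 to -0.17) and Per1 (0.13 to 0.23) crossed the threshold when a library was left out. The log2 ratio of Npas2 to Clock ranged from -0.49, without control library 3, to 0.38. Small values that were not called turned sign. Vamp3 (0.01) was -0.0032 with DESeq2 size factors, -0.0342 with total counts, -0.0064 under the 1 CPM filter, -0.0029 under DESeq2, and -0.0227 to 0.0247 with a library left out. Arntl was -0.0226 with total counts and -0.0227 to 0.0708 with a library left out. Ciart was 0.0218 under limma-voom and -0.38 to 0.18 with a library left out, and Ube2n-ps1 was -0.20 to 0.0059. The median of all genes moved between -0.03 and 0.02. Npas2 has no value under the 1 CPM filter, where its depth was too low. The causes were not tested. Npas2 had 9 to 39 reads per library. Counts per gene do not show isoforms, phase or protein.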

Other observations

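Genes that answer cues which reset the clock of fibroblasts were also read out as lists. Each list held genes that rose and genes that fell. The part of such cues in the clock gene values was not tested. Of 15 immediate early genes, the first responders to serum, 7 rose and 6 fell. Their median log2 fold change was 0.08 (SAFB KD over control), against 0.01 over all genes tested. The share called was 86.7%, against 41.8% of all genes tested and 60.6% of those at 1 CPM or more, a difference that was not tested. Ier3 rose to 177 ± 11.6 CPM in SAFB KD, against 89.7 ± 3.44 CPM in control (SD, n = 3 each). The EGR transcription factor genes fell, with Egr3 at 30.1 ± 2.45 and 53.7 ± 3.05 CPM, Egr2 at 22.5 ± 1.77 and 35.8 ± 1.85 CPM, and Egr1 at 299.9 ± 8.87 and 434 ± 18.6 CPM in SAFB KD and control (SD, n = 3 each).

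Of 10 glucocorticoid-responsive genes, Per1 among them, 8 were tested, 4 rose and 3 fell, with a median log2 fold change of 0.01. The share called was 87.5%, against 41.8% of all genes tested and 60.6% of those at 1 CPM or more, a difference that was not tested. The kinase gene Sgk1 fell (-0.55, SE 0.0292), the phosphatase gene Dusp1 rose (0.58, SE 0.0551), and Fkbp5, which encodes a chaperone of the glucocorticoid receptor, rose (0.23, SE 0.0363). The receptor gene itself, Nr3c1, which the list counts, fell to 149 ± 2.63 CPM in SAFB KD, against 163 ± 3.10 CPM in control (SD, n = 3 each; log2 fold change -0.12, SE 0.0310).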
